A study of Mus musculus with 9 samples.

Results

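Metallothioneins are small cysteine-rich proteins that bind zinc and copper, and Mt1, Mt2 and Mt3 are the family members described here. They were chosen because Mt2 had stood out among the array's genes in these same data. Their levels are therefore given as a description, and no test of them counts as support. Every probe set that the platform annotation gives to 1 of these genes alone was taken. That left 3 of the 12393 genes named on the array, carried by 4 probe sets, of which 3 were bright enough to enter the comparisons across genes. The 3 are 1428942_at for Mt2, 1422557_s_at for Mt1 and 1420575_at for Mt3, while 1451612_at, the other probe set of Mt1, was too dim.

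The 9 arrays came from spinal motor neurons cut by laser from mice with spinal muscular atrophy (SMA), a disease in which low levels of the survival motor neuron protein lead to loss of motor neurons, and from wild-type mice. There were 3 wild-type mice, 3 SMA mice and 3 SMA mice labelled as NSC-transplanted, with 1 animal per array. All had surgery at postnatal day 1, at which the wild-type and SMA mice received vehicle and the others a cell transplant, and all were killed at 13 days. The alleles, strain and sex of the mice are not given in the labels, nor is the origin of the transplanted cells. The cords were perfused with fixative and frozen, about 100 cells were collected per cap from sections of 16 µm at lumbar levels, and the RNA of 1 animal went through 2 rounds of amplification. The values are MAS5 signals, a linear brightness per probe set in arbitrary units that reads each probe against its mismatch partner. Differences between groups are given on the scale of log2(signal + 16), which understates changes of dim genes.

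The cell label was checked against 10 motor neuron markers, of which 9 had a probe set and 4 were bright enough to be tested. Those 4 were the neurofilament chains Nefl, at 871 ± 272 (SD, n = 9), Nefm, at 208 ± 151, and Nefh, at 123 ± 89.5, and the transcription factor Isl2, at 59.5 ± 28.2. Slc18a3, the vesicular acetylcholine transporter, read 13.4 ± 11.9 (SD, n = 9), and Slc5a7, the choline transporter, read 7.9 ± 3.03 (SD, n = 9), both too dim to be tested. Isl1 and Mnx1, transcription factors of motor neurons, and the filament protein Prph were also too dim, and Chat had no probe set named for it alone. Markers of astrocytes, oligodendrocytes and microglia were bright on every array, with summed signals of at least 10509.3, 18451.6 and 5315.5. In such samples, a change in the share of another cell type and a change of RNA per cell cannot be told apart.

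Mt1 and Mt2 are made in many tissues and their transcription rises with zinc, copper and cadmium. The zinc-sensing factor Mtf1 binds metal response elements upstream of both genes, and glucocorticoids, cytokines acting through Stat3, and oxidative stress also raise them. In the nervous system, astrocytes and ependymal cells are their best known source. Mt3 is mostly made in the brain and spinal cord, was first described as an inhibitor of neurite growth, and responds little to metals. Mt4 belongs to stratified epithelia.

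The 4 genes lie together on mouse chromosome 8 in the order Mt4, Mt3, Mt2 and Mt1, with the uncharacterised gene Gm39227 between Mt3 and Mt2 in the RefSeq gene order. The 250 bases before the annotated start of each member are shown because metals and glucocorticoids are known to act on Mt1 and Mt2 through upstream elements. They are RefSeq sequences of build GRCm38.p6, all on the plus strand, at chr8:94178839-94179088 for Mt1, chr8:94172368-94172617 for Mt2 and chr8:94152357-94152606 for Mt3. Capitals mark the core of the metal response element.
Mt1: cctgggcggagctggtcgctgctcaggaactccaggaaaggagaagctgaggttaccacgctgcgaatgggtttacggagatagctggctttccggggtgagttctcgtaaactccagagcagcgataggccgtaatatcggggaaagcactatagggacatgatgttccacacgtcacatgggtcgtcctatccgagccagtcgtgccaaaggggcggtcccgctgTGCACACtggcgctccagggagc
Mt2: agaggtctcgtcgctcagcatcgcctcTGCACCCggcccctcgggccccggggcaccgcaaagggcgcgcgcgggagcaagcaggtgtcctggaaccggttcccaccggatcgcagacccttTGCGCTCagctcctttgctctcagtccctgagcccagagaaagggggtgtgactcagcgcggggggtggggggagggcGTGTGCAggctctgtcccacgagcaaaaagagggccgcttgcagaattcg
Mt3: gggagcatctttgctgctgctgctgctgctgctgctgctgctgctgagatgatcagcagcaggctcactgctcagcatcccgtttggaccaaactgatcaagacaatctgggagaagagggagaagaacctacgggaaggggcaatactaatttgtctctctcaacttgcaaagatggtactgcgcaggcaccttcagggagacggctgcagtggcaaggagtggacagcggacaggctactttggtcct
The core was searched as TGCACNC or TGCGCNC on both strands. Mt2 had 3 matches, TGCACCC at 223 bases, TGCGCTC at 128 bases and, on the minus strand, GTGTGCA at 50 bases before the start. Mt1 had 1, TGCACAC at 23 bases before the start, and Mt3 had 0. Of 32851 windows of the same length from 27025 genes, 21.4% held at least 1 match and 1.26% held 3 or more. The full glucocorticoid response palindrome, GNACA and TGTNC with any 3 bases between them, was matched in the Mt1 window alone of these 3, by GGACATGATGTTC at 94 bases before the start, and in 0.387% of all windows. The core of the antioxidant response element, TGACNNNGC, was matched in the Mt2 window alone, by TGACTCAGC at 79 bases before the start, and in 10.2% of all windows. None of these matches overlapped another in the members. TATAAA was in none of the 3 windows and in 12.4% of all windows. A match describes the letters only. The annotated starts of Mt1 and Mt2 may lie upstream of their main starts, so these windows may miss the nearest promoter bases, and the counts are no measure of how the genes differ in their elements.

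Mt2 was higher in every SMA mouse than in every wild-type mouse, 3.58-fold on average. The wild-type arrays read 864.4, 907.0 and 789.8. The SMA arrays read 3554.9, 2225.3 and 3732.8. The transplanted SMA arrays read 1878.1, 2055.4 and 2891.3. The wild-type mice lay close together at 854 ± 59.3 (SD, n = 3), while the SMA mice, at 3171 ± 824 (SD, n = 3), and the transplanted SMA mice, at 2275 ± 541 (SD, n = 3), varied more. The SMA group was 1.84 above wild type on the log2 scale (SE 0.22), the 12th largest positive difference of the 11313 tested probe sets.

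Mt1 followed the same order of groups as Mt2. Its bright probe set read 1500.2, 1269.4 and 1230.4 in wild-type mice. Its SMA signals were 4522.2, 2460.4 and 5263.1, and the transplanted arrays gave 2213.2, 2603.0 and 4215.3. The group means were 1333 ± 146, 4082 ± 1452 and 3010.5 ± 1061 (SD, n = 3 each). All SMA arrays were above all wild-type arrays, by 1.54 on the log2 scale (SE 0.29) or 2.9-fold, the 17th largest positive difference. The suffix of this probe set marks one that can match more than 1 transcript, so some of its signal may belong to a related transcript. The dim probe set of Mt1 ran from 3.3 to 12.6 in wild-type mice, from 10.4 to 14.3 in SMA mice and from 4.6 to 26.8 after transplantation. At that brightness the groups overlapped, and the probe sets of this gene disagreed on whether SMA and wild type separate.

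Mt3 differed little between the groups. The wild-type signals were 169.7, 105.4 and 155.3. The SMA signals were 155.7, 105.3 and 164.5, and those after transplantation 140.6, 105.8 and 154.0. The means were 143 ± 33.7, 142 ± 31.9 and 133 ± 24.9 (SD, n = 3 each), and the groups overlapped in all 3 comparisons. The difference of SMA minus wild type was -0.01 on the log2 scale (SE 0.23). Mt4, the remaining gene of the family, read between 1.4 and 14.3 and was too dim to compare.

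**Figure D1:**
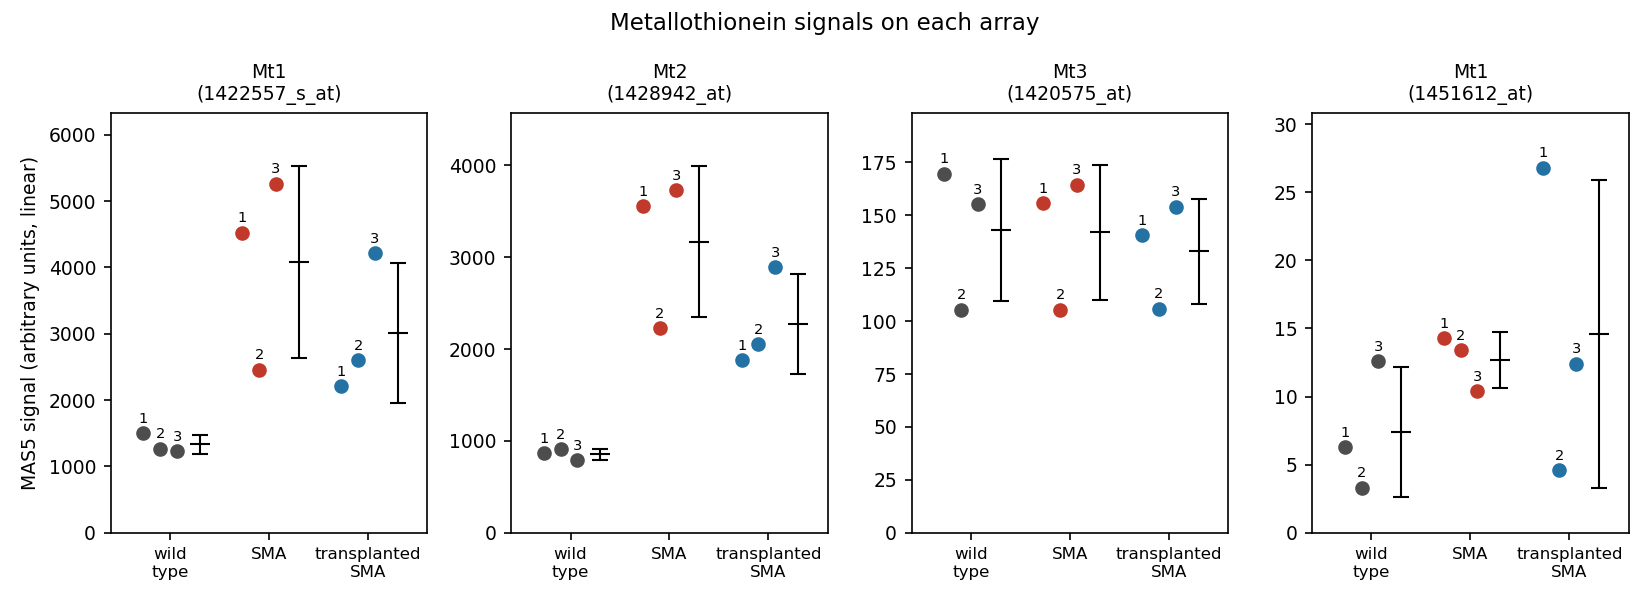
MAS5 signal (arbitrary units, linear axes that start at 0 and differ between panels) of each metallothionein probe set in wild-type, SMA and transplanted SMA mice. Points are single arrays with their replicate number, and the bar beside them is the mean ± SD of 3 arrays. The SMA and transplanted points of Mt2 and of the bright Mt1 probe set lie above all wild-type points, while those of Mt3 overlap.

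In the plot of signals by array, Mt1 and Mt2 separate the wild-type mice from both SMA groups and Mt3 separates none. Of the 3 tested metallothionein probe sets, 2 (Mt1 and Mt2) were higher in SMA than in wild type without overlap, beside 5.31% of all tested probe sets. Past an adjusted p of 0.05 in limma was 1 of the 3 (Mt2), beside 0.0442% of all tested, and an unadjusted p under 0.05 was found for 6.04% of all tested. The call of Mt2 was lost in 6 of 22 other settings: without SMA replicate 1, without any 1 of the wild-type arrays, without SMA replicates 1 and 2, and with Xist as a covariate. Mt1 passed without SMA replicate 2. The members were chosen on this contrast, so nothing is read from these shares.

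The transplanted SMA mice lay between the other groups for Mt1 and Mt2. Their mean was below that of the SMA mice by -0.47 (SE 0.22) for Mt2 and -0.42 (SE 0.29) for Mt1 on the log2 scale, which is 1.38-fold and 1.34-fold. The groups overlapped for both: the highest transplanted array, replicate 3, was above the lowest SMA array, replicate 2. None of the 3 members was lower in transplanted SMA mice without overlap, beside 4.68% of all tested probe sets. For Mt3 the difference was -0.07 (SE 0.23). In limma, 0 of the 11313 tested probe sets (0.0%) passed the adjusted threshold in this comparison, and 540 (4.77%) had an unadjusted p under 0.05.

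Set against wild type, the transplanted mice were higher by 1.37 (SE 0.22) for Mt2 and 1.12 (SE 0.29) for Mt1 on the log2 scale, or 2.59-fold and 2.17-fold. Every transplanted array was above every wild-type array for both genes, as for 7.11% of all tested probe sets. On the log2 scale the transplanted mean lay at 74.7% of the distance from the wild-type to the SMA mean for Mt2, and at 72.6% for Mt1. Mt3 differed by -0.08 (SE 0.23). In limma, 0 of the 11313 tested probe sets (0.0%) passed the adjusted threshold here, and 741 (6.55%) had an unadjusted p under 0.05. The comparisons share arrays: each group enters 2 of the 3.

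**Figure D2:**
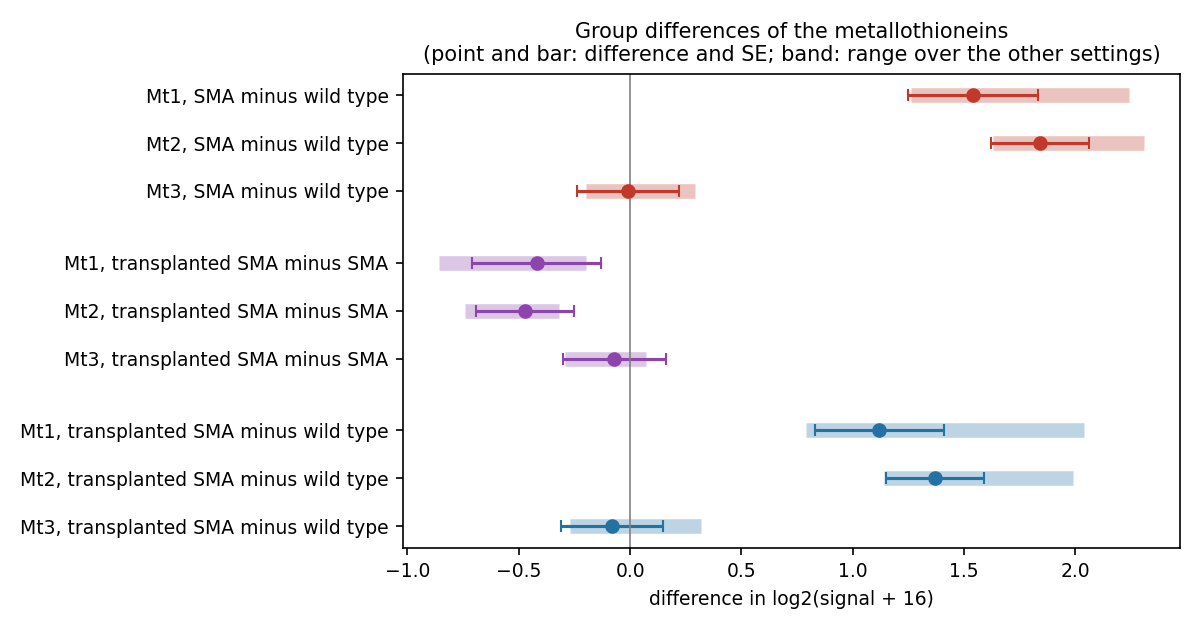
Difference between groups in log2(signal + 16) for Mt1, Mt2 and Mt3 in each of the 3 comparisons. Points and bars are the difference and its SE, and the shaded band is the range over 22 other settings of the analysis. The differences of Mt1 and Mt2 from wild type stay above 0 and those of Mt3 lie on both sides of 0.

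The plot of differences shows how far each depended on the processing. Mt2 stayed between 1.63 and 2.31 above wild type in SMA mice, and Mt1 between 1.26 and 2.24. For transplanted minus SMA mice the range was -0.74 to -0.32 for Mt2 and -0.86 to -0.20 for Mt1. For Mt3 the sign changed with the setting in each comparison.

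Mt1 and Mt2 varied together from array to array. Their Pearson correlation over the 9 arrays was 0.98, and it was 0.97 once each group's mean was removed, which leaves the variation among mice of a group. Mt3 correlated with Mt1 at 0.27 and with Mt2 at 0.11 over the 9 arrays, and at 0.67 and 0.55 with group means removed. The points share 1 scaling per array and 3 of them belong to each group, so these values describe the arrays and carry no test. The bright Mt1 probe set can match more than 1 transcript, and whether it shares signal with Mt2 was not tested.

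The arrays differed in ways other than disease and transplant. The wild-type mice had Xist signals of 23.5 to 32.9 and Eif2s3y signals of 49.0 to 75.1, the pattern of males. SMA replicates 1 and 2 had Xist at 600.7 and 879.5 and Eif2s3y at 0.5 and 0.1, while SMA replicate 3 had 47.6 and 108.9. Transplanted replicates 1 and 2 had the female pattern, and replicate 3 had both genes, Xist at 366.1 and Eif2s3y at 84.8. SMA replicates 1 and 2 also carried the skeletal muscle genes Acta1, at 1288.7 and 1413.7, and Mylpf, at 257.1 and 374.5, against 1.5 to 27.1 for Acta1 on the other arrays. Atp2a1, the calcium pump of fast muscle, read 163.5 and 108.6 there and 8.4 to 33.6 on the others. The control probe sets for 18S ribosomal RNA read 2939.6 on wild-type replicate 3 and 2765 on SMA replicate 3, against 839 to 1832 on the others. The geometric mean of the hybridisation controls was 269.7 and 299.7 on those arrays, against 170.5 to 232. The part of these differences in the metallothionein values was not tested.

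SMA replicate 3 had the male pattern, and the summed signal of its muscle markers, 82.5, lay within the wild-type range of 57.3 to 139.1. It had the highest Mt1 and Mt2 of all 9 arrays. Compared with wild type, it alone was higher by 1.97 for Mt1 and 2.11 for Mt2 on the log2 scale. This is 1 animal, so its own spread is not known. All transplanted arrays had more Xist than any wild-type array, so sex and group cannot be told apart in the comparison of those groups. Without the arrays numbered 3, the SMA mice were above wild type by 1.26 for Mt1 and 1.65 for Mt2. Among these arrays transplanted minus SMA was -0.47 for Mt1 and -0.51 for Mt2, with SMA and transplanted mice all of the female pattern.

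Astrocytes were the other cells to consider, since they make both genes. The summed signal of 12 astrocyte markers ran from 10553.9 to 12899.3 in wild-type, 10509.3 to 18050.6 in SMA and 10829.4 to 16776.2 in transplanted SMA mice, so the groups overlapped. Of 11 tested markers, 8 were above and 3 below wild type in SMA mice, with a median difference of 0.26, against 0.01 for all tested probe sets. In limma 0 passed the adjusted threshold and 1 had an unadjusted p under 0.05, beside 6.04% of all tested. Gfap, the astrocyte filament protein, read 469.1, 445.6 and 1007.3 in wild-type and 399.6, 406.2 and 2206.1 in SMA mice. Aqp4, the water channel of astrocyte endfeet, read 1710.8, 1254.4 and 1596.2 in wild-type and 723.6, 930.8 and 2170.8 in SMA mice. The markers did not move as one on SMA replicates 1 and 2, where Mt1 and Mt2 were above all wild-type arrays: Gfap, Aqp4 and S100b were below all wild-type arrays there. Gjb6, at 316.5 and 251.6 against 141.9 to 243.9 in wild type, and Slc1a3, at 228.4 and 291.4 against 115.2 to 214.6, were above them. SMA replicate 3 was the highest of the 9 arrays in Gfap and Aqp4, as in Mt1 and Mt2. Aldh1l1, a folate enzyme of astrocytes, read 684.2, 517.5 and 425.5 in wild-type and 901.1, 635.3 and 507.5 in SMA mice.

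In the transplanted mice Gfap read 644.3, 847.5 and 1490.0 and Aqp4 read 910.7, 1394.4 and 1994.2. Both were highest in replicate 3, which also had the highest Mt1 and Mt2 of that group. The median difference of the 11 astrocyte markers from wild type was 0.27 in that group. The part of astrocyte RNA in the result was not tested beyond these values. Ependyma could not be judged, since 0 of its 5 markers were bright enough. The nearest tested genes on either side of the cluster, Nudt21 before it and Nup93 after it, overlapped between the groups in all 3 comparisons: Nudt21 read 224.3 to 356.9 in wild-type and 199.0 to 278.7 in SMA mice, and Nup93 85.8 to 175.3 and 74.1 to 187.6.

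**Figure D3:**
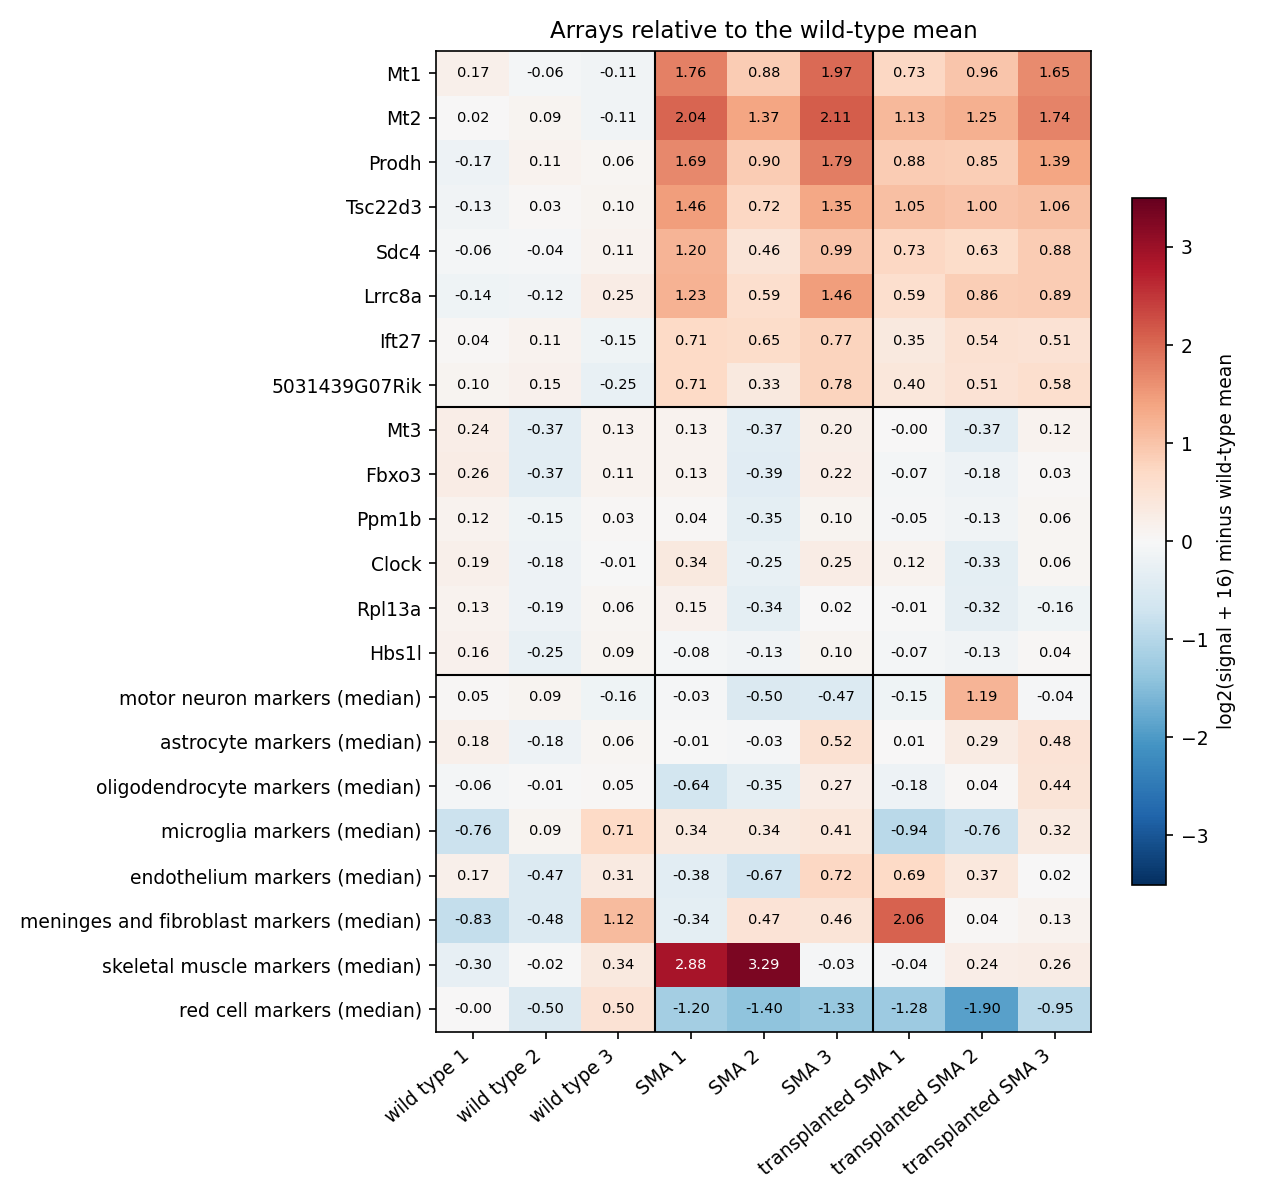
Each array's log2(signal + 16) minus the wild-type mean, for Mt1 and Mt2 with the genes most like them (upper block), Mt3 with the genes most like it (middle) and the median of each tested list of cell type markers (lower). Red is above and blue below the wild-type mean. Mt1 and Mt2 are red on all 6 SMA and transplanted arrays, while the muscle markers are at 2.88 and 3.29 on SMA replicates 1 and 2 and between -0.30 and 0.34 on the other arrays.

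The heat map sets the metallothioneins beside the probe sets most like them, picked by Pearson correlation over the 9 arrays from 10423 other tested probe sets. Since they were picked by value, the coefficients are a description. Prodh, which starts the breakdown of proline in mitochondria, was the most like Mt2, with a correlation of 0.98, and it stood at 0.97 with Mt1. Prodh read 14.0, 20.4 and 19.2 in wild-type mice. The SMA arrays gave 92.8, 46.8 and 100.7, and the transplanted arrays gave 46.3, 45.0 and 72.5. Its order of the 3 SMA mice was the order of Mt2, but its orders of the wild-type and of the transplanted mice were not. The glucocorticoid-induced leucine zipper gene Tsc22d3 correlated with Mt2 at 0.96 through 1 of its 3 probe sets, which read 32.0 to 40.2 in wild-type, 70.7 to 128.1 in SMA and 88.7 to 93.6 in transplanted mice. Its brightest probe set, used in the list of glucocorticoid-induced genes, overlapped between wild-type mice, at 157.5 to 198.4, and SMA mice, at 177.8 to 352.6, with a difference of 0.47 (SE 0.24, limma adjusted p = 0.846). Sdc4, a heparan sulfate proteoglycan of the cell surface, correlated at 0.95 with Mt2 and 0.94 with Mt1, and Ift27, of intraflagellar transport, at 0.96 with Mt2. For Mt1, Lrrc8a, a subunit of the volume-regulated anion channel, and 5031439G07Rik both stood at 0.94.

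Mt3 had other companions. Fbxo3, an F-box protein of a ubiquitin ligase, correlated with it at 0.96, and the phosphatase Ppm1b, the circadian factor Clock, the ribosomal protein gene Rpl13a and Hbs1l, a ribosome rescue factor, at 0.87 to 0.91. Fbxo3 read 158.6, 96.9 and 141.4 in wild-type mice. The SMA arrays gave 143.4, 95.4 and 153.8, and the transplanted arrays gave 123.3, 112.6 and 132.6. Like Mt3, it was lowest on the array numbered 2 in each group.

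The regulators of metallothionein genes came next. Mtf1, the zinc-sensing activator, read 53.1, 74.5 and 97.7 in wild-type mice. The SMA arrays gave 115.3, 102.7 and 155.5, and the transplanted arrays gave 144.1, 172.8 and 117.6. All SMA and transplanted arrays were above all wild-type arrays, as for 5.31% and 7.11% of all tested probe sets. The difference was 0.64 (SE 0.23) for SMA and 0.84 (SE 0.23) for transplanted mice on the log2 scale, and neither passed (limma adjusted p = 0.719 and 0.523). Stat3, which carries cytokine signals, was 0.58 higher in SMA than in wild-type mice (SE 0.21, limma adjusted p = 0.732), at 125.1 to 184.2 against 68.2 to 108.2. Usf2, a factor that binds E-boxes, was 0.72 higher in transplanted than in wild-type mice (SE 0.24, limma adjusted p = 0.698). Of the 8 tested regulators, 0 passed the adjusted threshold of limma in any comparison. An unadjusted p under 0.05 was seen for 2 in SMA and 2 in transplanted mice against wild type, all higher, and for 0 between the SMA groups. Over all tested probe sets the shares were 6.04%, 6.55% and 4.77%, in either direction. In SMA minus wild type the list's median was 0.28 against 0.01 over all tested probe sets.

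Genes that move zinc showed smaller differences. Slc30a1, the zinc exporter of the plasma membrane and a known target of Mtf1, read 23.0, 26.1 and 41.5 in wild-type mice. The SMA arrays gave 33.6, 33.6 and 48.2, and the transplanted arrays gave 37.7, 37.2 and 60.0. The groups overlapped, with differences from wild type of 0.25 (SE 0.22, limma adjusted p = 0.987) and 0.40 (SE 0.22, limma adjusted p = 0.804). The 7 tested exporters had a median of -0.01 in SMA minus wild type and the 9 tested importers -0.11, and 0 of either passed the adjusted threshold or had an unadjusted p under 0.05 in limma. In transplanted minus wild-type mice, Slc30a9 was -0.41 (SE 0.19) and the importer Slc39a14 0.72 (SE 0.30), with limma adjusted p = 0.754 and 0.739.

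Copper and iron genes lay near the background too. The 10 tested copper genes had a median of -0.03 in SMA minus wild type, -0.24 to 0.20, and 0 had an unadjusted p under 0.05 in any comparison in limma, nor did any pass the adjusted threshold. Of the 11 tested iron genes 0 passed the adjusted threshold. In each comparison 1 had an unadjusted p under 0.05, beside 4.77% to 6.55% of all tested probe sets. It was Ncoa4, the receptor that delivers ferritin to autophagy, against wild type, at -0.55 in SMA (SE 0.19, limma adjusted p = 0.686) and -0.42 in transplanted mice (SE 0.19, limma adjusted p = 0.754). Between the SMA groups it was Ireb2, an iron-responsive RNA-binding protein, at -0.37 (SE 0.16, limma adjusted p = 0.933).

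The antioxidant and glutathione enzymes, which share oxidative stress as an inducer with metallothioneins, had a median of -0.03 in SMA minus wild type over 20 tested genes. In limma 0 passed the adjusted threshold in any comparison. An unadjusted p under 0.05 was seen for 0 in SMA minus wild type, 1 in transplanted minus SMA and 2 in transplanted minus wild type. Over all tested probe sets the shares were 6.04%, 4.77% and 6.55%. Srxn1, which repairs oxidised peroxiredoxins, was 0.63 higher in transplanted than in SMA mice (SE 0.19, limma adjusted p = 0.933) and 0.44 higher than in wild type (SE 0.19, limma adjusted p = 0.751). Gsta4, a glutathione transferase, was 0.39 higher in transplanted than in wild-type mice (SE 0.16, limma adjusted p = 0.739). Hmox1 and Nqo1, classic stress-induced enzymes, were too dim to test. Hmox1 read 2.6 to 6.4 in wild-type and 12.2 to 29.0 in SMA mice, and Nqo1 12.5 to 21.3 and 25.1 to 30.1. At that brightness neither overlapped between these groups, and both overlapped between transplanted and wild-type mice. Sod3 and Slc7a11, also too dim to test, overlapped between wild-type and SMA mice.

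The list of glucocorticoid-induced genes, like the other lists, was assembled with results of these data known. Its values are therefore a description and carry no support for a link to glucocorticoids. All 12 tested genes were above wild type in SMA mice, by 0.36 to 1.89, with a median of 0.55 against 0.01 for all tested probe sets. In transplanted minus wild-type mice all 12 were above 0 as well, with a median of 0.64 against -0.01. The list has 16 genes, and Pdk4, Cebpb, Cebpd and Zbtb16 were too dim to test. Against wild type these dim genes were 0.32, 0.31, 0.53 and -0.23 in SMA mice. In transplanted mice they were 0.22, -0.02, 0.51 and 0.44. Sult1a1, a sulfotransferase, rose by 1.89 in SMA mice (SE 0.18, limma adjusted p = 0.00345). No other gene of the list passed the adjusted threshold, which 0.0442% of all tested probe sets passed. In limma 5 genes had an unadjusted p under 0.05, beside 6.04% of all tested. Sult1a1 read 20.8 to 34.3 in wild-type and 126.4 to 171.7 in SMA mice. The call of Sult1a1 was lost with Xist as a covariate, at a difference of 2.10 (limma adjusted p = 0.0754). Without SMA replicates 1 and 2, which leaves 1 SMA mouse, the difference was 2.07.

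Fkbp5, a co-chaperone of the glucocorticoid receptor, was 1.05 higher in SMA than in wild-type mice (SE 0.27, limma adjusted p = 0.534). It read 69.7, 59.9 and 66.5 in wild-type mice. The SMA arrays gave 248.4, 113.9 and 121.7, and the transplanted arrays gave 117.5, 87.9 and 144.7. Ddit4, a stress-induced inhibitor of mTOR signalling, was 0.85 higher in SMA than in wild-type mice (SE 0.25, limma adjusted p = 0.568) and -0.74 in transplanted minus SMA mice (SE 0.25, limma adjusted p = 0.933). Dusp1, a phosphatase of MAP kinases, was 1.26 higher in transplanted than in SMA mice (SE 0.31, limma adjusted p = 0.933). Against wild type it was 2.16 higher (SE 0.31, limma adjusted p = 0.0805), and without SMA replicate 3 it passed at the same difference (limma adjusted p = 0.0275). Zfp36, which destabilises mRNAs, was 0.81 and 1.17 higher in the same comparisons (SE 0.31 each, limma adjusted p = 0.933 and 0.523). In transplanted minus SMA mice the list's median was -0.30 against 0.00, with 5 genes above and 7 below 0.

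Genes of the acute phase and of Stat3 had a median of 0.28 over 12 tested genes in SMA minus wild type. In transplanted minus wild-type mice their median was 0.55, with 9 genes above and 3 below 0. There 4 had an unadjusted p under 0.05 in limma, beside 6.55% of all tested probe sets. In SMA mice Hspb1, a small heat shock protein, rose by 1.87 and 2.54 on its probe sets (SE 0.22 and 0.25, limma adjusted p = 0.0135 and 0.00345). It was the only gene of the list past the adjusted threshold, which 0.0442% of all tested probe sets passed. Without SMA replicates 1 and 2, which leaves 1 SMA mouse, the differences were 1.62 and 2.54. With Xist as a covariate they were 1.64 and 2.65, and neither passed (limma adjusted p = 0.255 and 0.11). The call on the brighter probe set was also lost without wild-type replicate 1, at 1.82, wild-type replicate 2, at 1.77, or SMA replicate 1, at 1.72 (limma adjusted p = 0.123, 0.135 and 0.104). Its brighter probe set was -1.02 in transplanted minus SMA mice (SE 0.22, limma adjusted p = 0.933) and 0.85 above wild type (SE 0.22, limma adjusted p = 0.523). Socs3, a feedback inhibitor of cytokine signalling, was 1.70 higher in transplanted than in SMA mice (SE 0.40, limma adjusted p = 0.933) and 1.81 above wild type (SE 0.40, limma adjusted p = 0.326). Junb, of the AP-1 complex, was 0.71 and 1.03 higher (SE 0.27 each, limma adjusted p = 0.933 and 0.523). Cdkn1a, a cell cycle inhibitor and the remaining gene past the threshold in SMA against wild type, rose by 1.98 (SE 0.28, limma adjusted p = 0.0464). That call was lost on leaving out any 1 array other than SMA replicate 3 or transplanted replicate 1, with differences of 1.83 to 2.02 and limma adjusted p-values of 0.0512 to 0.294. With Xist as a covariate the difference of Cdkn1a fell to 1.25 (limma adjusted p = 0.427). Without SMA replicates 1 and 2, which leaves 1 SMA mouse, it was 1.42. The call was also lost with a pseudocount of 64, at 1.13, without the brightness filter, and with only the 6 arrays compared.

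**Figure D4:**
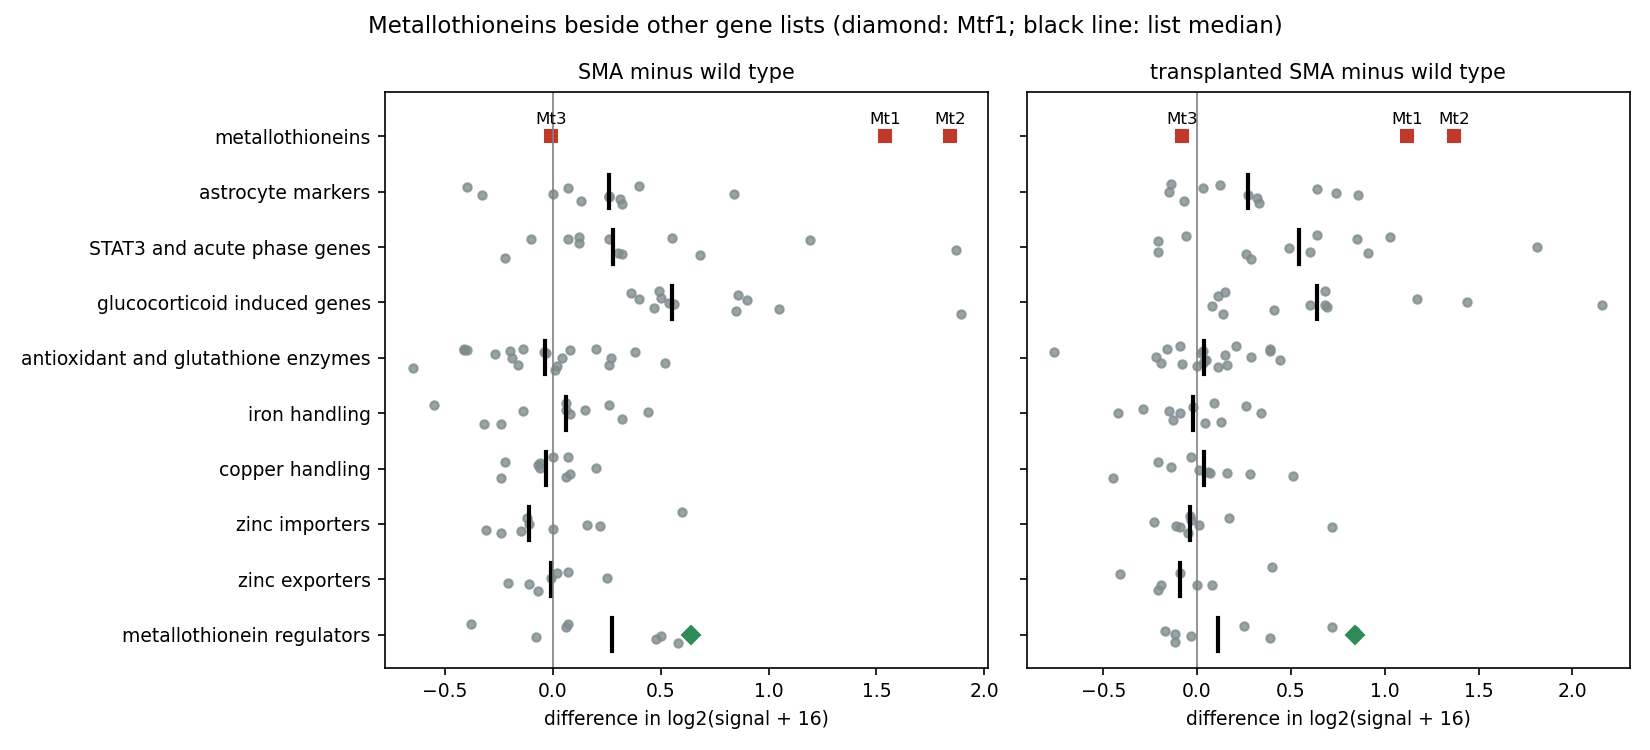
Difference from wild type in log2(signal + 16) for SMA mice (left) and transplanted SMA mice (right). Squares are Mt1, Mt2 and Mt3, grey points the tested genes of each list, the diamond Mtf1, and black lines the list medians. Mt1 and Mt2 lie to the right of every zinc, copper, iron and antioxidant gene in both panels.

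The plot of lists places Mt1 and Mt2 beside these genes: no tested gene of the zinc, copper, iron or antioxidant lists reached their difference in either comparison with wild type. The largest of those lists in SMA minus wild type was 0.60, against 1.54 for Mt1. The members were chosen on SMA minus wild type in these same data, so nothing is read from their larger differences. All lists were assembled with results of these data known, so their counts and medians describe these arrays and single out no list.

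Markers of other cell types also differed between the group means. Igf2, of meninges and fibroblasts, was 1.57 higher in SMA than in wild-type mice (SE 0.57, limma adjusted p = 0.724), though the groups overlapped. It read 591.2, 651.6 and 299.3 in SMA mice and 83.8 to 299.7 in wild-type mice. Of the 7 tested markers of that list, 5 were above and 2 below wild type, with a median of 0.23. Gjb6, an astrocyte gap junction protein, was 0.84 higher in SMA than in wild-type mice (SE 0.35, limma adjusted p = 0.807). Alas2, the haem synthesis enzyme of red cells, was -1.31 in SMA (SE 0.28, limma adjusted p = 0.375) and -1.38 in transplanted mice (SE 0.28, limma adjusted p = 0.289) against wild type. Slc1a2, the glutamate transporter of astrocytes, was 0.87 higher in transplanted than in SMA mice (SE 0.32, limma adjusted p = 0.933) and 0.86 above wild type (SE 0.32, limma adjusted p = 0.699). Its transplanted arrays, at 119.9 to 152.0, overlapped the SMA arrays, at 41.5 to 130.5. Of the 11 tested astrocyte markers, 6 were above and 5 below SMA in transplanted mice, with a median of 0.07.

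All 6 tested oligodendrocyte markers were below wild type in SMA mice, with a median of -0.40, and above SMA in transplanted mice, with a median of 0.32. The 5 tested endothelium markers were all above SMA in transplanted mice, with a median of 0.63. In limma 0 of either list passed the adjusted threshold, and 0 had an unadjusted p under 0.05 in any comparison.

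In transplanted minus SMA mice all 8 microglia markers were negative, with a median of -0.86. In limma 0 passed the adjusted threshold and 4 had an unadjusted p under 0.05, beside 4.77% of all tested probe sets. Cx3cr1 was -1.13 (SE 0.33), Tyrobp -0.94 (SE 0.36) and C1qa -1.10 (SE 0.41), each with a limma adjusted p = 0.933. Against wild type Cx3cr1 was -0.98 in the transplanted mice (SE 0.33, limma adjusted p = 0.698). The motor neuron genes Isl2 and Nefh were 0.72 (SE 0.27) and 1.02 (SE 0.40) higher in transplanted than in SMA mice (limma adjusted p = 0.933 each). Isl2 was 0.83 above wild type (SE 0.27, limma adjusted p = 0.671). Nefh read 91.2, 348.2 and 120.4 in transplanted mice, against 77.2 to 156.2 in wild-type mice. The median deviation of the tested motor neuron markers from the wild-type mean was -0.15, 1.19 and -0.04 on the transplanted arrays. The part of these cell types in the metallothionein values was not tested.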

How the data were processed

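Gene expression was measured on 9 arrays, 3 per group. Each deposited value is a MAS5 signal, an intensity on a linear scale, per the submitters' processing notes, which name no version. In these values every array had a trimmed mean of 100, so the authors' scaling was kept. Of 22690 probe sets, 64 controls were left out. Signals were transformed to log2(signal + 16). The brighter 50% by mean over all arrays, 11313 probe sets, was tested with limma 3.58.1 in R 4.3.3 (lmFit, eBayes with trend), 1 model of 3 group means with 6 residual degrees of freedom. Tests were two-sided, with Benjamini-Hochberg adjustment over all tested probe sets of a comparison. The scripts were tested on simulated data. The number of arrays, 3 per group with 1 animal each, limits the precision.

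A gene entered a list by its brightest probe set naming it alone. The text names all metallothionein probe sets, the 5 probe sets most correlated with each member, up to 3 genes per list and comparison with the smallest unadjusted p under 0.05, genes past the adjusted threshold, the neighbours of the cluster, and Mtf1, Slc30a1, Gfap, Aqp4 and Aldh1l1. The members and lists were chosen with earlier results of these data known. Alternatives changed the pseudocount, normalisation, brightness filter, variance model, arrays and covariates.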

Additional observations from a re-analysis of the deposited data

How the results depend on the processing

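The differences of Mt1 and Mt2 kept their sign in all 22 other settings and in all 3 comparisons. The members were chosen on SMA minus wild type in these same data. How often they passed a threshold in these settings is therefore a description, and nothing is read from it. With Xist as a covariate the differences from wild type moved most: Mt1 to 2.24 in SMA and 2.04 in transplanted mice, Mt2 to 2.31 and 1.99, and Mt3 to 0.29 and 0.32; the cause was not tested. Leaving out 1 array at a time, SMA minus wild type ran from 1.32 to 1.86 for Mt1, 1.70 to 2.07 for Mt2 and -0.20 to 0.17 for Mt3. Transplanted minus SMA ran from -0.75 to -0.20, -0.70 to -0.33 and -0.25 to 0.07, and transplanted minus wild type from 0.85 to 1.31, 1.19 to 1.50 and -0.27 to 0.06. Mt2 passed the adjusted threshold in SMA minus wild type in 16 of the 22 settings; it did not with Xist as a covariate, without SMA 1 and SMA 2, without SMA 1, or without wild type 1, 2 or 3. Mt2 also passed in transplanted minus wild type in 3 settings (array weights, only the 6 arrays compared, and without SMA 1 and SMA 2), and Mt1 in SMA minus wild type in 1 (without SMA 2).

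Counts of probe sets past the adjusted threshold were unstable. For SMA minus wild type, 5 became 2 in the brighter 25%, 0 with Xist as a covariate, 0 without SMA 1 and SMA 2, 14 without the arrays numbered 3, and 2 to 13 with 1 array left out (leaving out wild type 1, wild type 2 or SMA 1 gave 2, wild type 3 gave 3, SMA 2 gave 9 and SMA 3 gave 13). For transplanted minus SMA, 0 became 3 with Xist, 6 without the arrays numbered 3, and 0 to 4 with 1 array left out (4 without SMA 3). For transplanted minus wild type, 0 became 2 with a pseudocount of 1, 8 with array weights, 8 with only the 6 arrays compared, 8 without SMA 1 and SMA 2, 4 without the arrays numbered 3, and 0 to 7 with 1 array left out (7 without SMA 3, 1 without transplanted SMA 2). Mtf1 in transplanted minus SMA turned to -0.11 without SMA 1 and SMA 2, which leaves 1 SMA mouse. Of the other named differences, Cdkn1a, Hspb1 and Sult1a1 lost their call in some settings and Dusp1 and Sult1a1 in transplanted minus wild type gained one.

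Same-numbered arrays correlated from -0.0832 to 0.453 after group means were removed, and not every pair was above 0.1, so the numbers were not taken to pair the arrays. The arrays numbered 3 did deviate together (0.453, 0.136 and 0.273), while numbers 1 and 2 gave -0.0832 to 0.298. With the replicate number as a block the counts were 5, 0 and 0, and the differences of Mt1, Mt2 and Mt3 in SMA minus wild type were 1.54, 1.84 and -0.01.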

Other observations

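Mt3 read 105.4, 105.3 and 105.8 on the arrays numbered 2 and 140.6 to 169.7 on the other 6. This was seen in the values and not looked for. Of the 11313 tested probe sets, 388 (3.43%) were lowest on the array numbered 2 in every group, against 573 (5.06%) for number 1 and 1294 (11.4%) for number 3. In 91 probe sets (0.804%) all arrays numbered 2 were below the other 6, as they were for Mt3. The labels do not say what the replicate numbers stand for.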
